A study of Mus musculus with 9 samples.

Results

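Interferon regulatory factors are transcription factors that switch on interferon genes and the genes that answer interferon, and several of them also direct the development of blood cells. The 8 factors described here are Irf1, Irf2, Irf3, Irf4, Irf5, Irf7, Irf8 and Irf9, taken by gene name from a deposited count table of 44806 entries. Each name stood on 1 row, and all 8 were among the 16596 genes with enough counts to be tested. RNA had been sequenced from mouse tumours grown from MB49, a bladder cancer line of the mouse that overexpressed HER2 in every group. Groups had been given Lipo-TriTE, Lipo-BiTE or PBS, with 3 libraries each. BiTE usually stands for bispecific T cell engager, a molecule built from antibody parts that holds a T cell to a tumour cell, and the labels do not spell out what either agent binds. PBS was the only control, so carrier and agent cannot be told apart in their effects. Mouse strain, age and time of harvest are not given by the labels. Nor do they say that replicates are different animals, so the p-values reflect only the variation among these samples, which may be technical. The design text names T cells sorted by CD3, whereas the labels and the protocol describe frozen whole tumour. Krt8, a keratin of simple epithelia, was read at 159 to 295 CPM in Lipo-TriTE, 266 to 380.0 CPM in Lipo-BiTE and 453 to 479 CPM in PBS libraries, so the counts are those of a mixed tissue. In such a mixture fewer cells of a type and less RNA per cell cannot be told apart.

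The family works at several steps of interferon signalling. Irf3 waits in the cytoplasm of most cells until kinases below the nucleic acid sensors phosphorylate it, and it then starts transcription of interferon beta. Irf7 amplifies type I interferon production, above all in plasmacytoid dendritic cells, and Irf5 acts downstream of Toll-like receptors on inflammatory cytokine genes in macrophages and dendritic cells. Irf9 is the DNA-binding part of ISGF3, the complex that carries the type I interferon signal to target genes. Irf1 is induced by interferon gamma and activates antigen presentation and guanylate-binding protein genes, and Irf2 binds the same sites and can oppose it. Irf4 serves activated T cells, B cells and plasma cells, and Irf8 serves dendritic cells, monocytes and B cells.

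The gene models of the table are those of C57BL/6NJ mice. Irf1 (MGP_C57BL6NJ_G0018696) lies at chr11:54790564-54798923 and Irf2 (MGP_C57BL6NJ_G0034087) at chr8:47591795-47708659. Irf3 (MGP_C57BL6NJ_G0032675) lies at chr7:47483211-47488468 and Irf4 (MGP_C57BL6NJ_G0020802) at chr13:29615202-29632879. Irf5 (MGP_C57BL6NJ_G0030964) lies at chr6:28112030-28127275, Irf8 (MGP_C57BL6NJ_G0034700) at chr8:128318723-128340680 and Irf9 (MGP_C57BL6NJ_G0021756) at chr14:52134307-52140772, all on the plus strand like the first 4. Irf7 (MGP_C57BL6NJ_G0033713) is on the minus strand at chr7:151794393-151798168. All are protein-coding. The models of 4 factors share bases with a neighbour: 907 bases of Irf1 with Gm17334, 1044 of Irf5 with Tnpo3, 45 of Irf7 with Phrf1 and 123 of Irf9 with Rnf31. Whether counting used strand is not given in the sources used here, so reads in those stretches cannot be assigned to one gene with certainty. Tnpo3, the partner with the longest shared stretch, had log2 fold changes from PBS of -0.17 with Lipo-TriTE and -0.16 with Lipo-BiTE.

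Promoters are shown for Irf1, Irf2 and Irf8, since these were the factors whose promoter windows held a match to a core element of the interferon pathways. RefSeq promoters of assembly GRCm38.p6, 250 bases before to 50 after each start, were at hand for 8 of 8 factors, 11 windows in all. Both strands were searched for TTCNNNGAA, the core of the GAS element of interferon gamma responses, and for GAAANNGAAA, the core of the ISRE element bound by ISGF3 and by the factors themselves. Matches are in capitals.
Irf1 promoter, chr11:53769764-53770063, plus strand: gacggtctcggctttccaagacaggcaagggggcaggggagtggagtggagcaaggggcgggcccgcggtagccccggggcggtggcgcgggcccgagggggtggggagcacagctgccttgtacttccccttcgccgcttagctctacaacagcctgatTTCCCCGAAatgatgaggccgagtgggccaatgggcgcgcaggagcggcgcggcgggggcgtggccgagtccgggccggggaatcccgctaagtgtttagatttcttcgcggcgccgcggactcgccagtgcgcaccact
Irf2 promoter, chr8:46739495-46739794, plus strand: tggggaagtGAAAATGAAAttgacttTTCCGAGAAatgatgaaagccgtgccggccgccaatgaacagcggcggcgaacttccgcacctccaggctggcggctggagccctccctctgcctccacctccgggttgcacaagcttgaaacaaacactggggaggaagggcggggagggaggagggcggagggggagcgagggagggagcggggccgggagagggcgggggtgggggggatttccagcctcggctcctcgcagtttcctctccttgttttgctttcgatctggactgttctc
Irf8 promoter, chr8:120736108-120736407, plus strand: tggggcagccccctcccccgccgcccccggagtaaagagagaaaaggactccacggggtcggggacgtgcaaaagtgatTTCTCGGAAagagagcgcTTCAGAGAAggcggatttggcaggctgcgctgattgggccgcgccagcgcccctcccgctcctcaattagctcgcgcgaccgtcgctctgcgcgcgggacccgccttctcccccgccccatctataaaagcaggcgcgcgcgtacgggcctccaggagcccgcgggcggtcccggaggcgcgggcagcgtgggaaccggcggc
The Irf1 window held 1 GAS core, TTCCCCGAA, beginning 90 bases before the start. The Irf8 window held 2, TTCTCGGAA and TTCAGAGAA, beginning 171 and 153 bases before it. The Irf2 window held an ISRE core, GAAAATGAAA, and a GAS core, TTCCGAGAA, beginning 241 and 224 bases before the start. Among the 11 windows 3 held a GAS core and 1 an ISRE core, against 8.3% and 3.44% of all 32851 promoters of the same length. The searched letters were not in the windows of Irf3, Irf4, Irf5, Irf7 and Irf9, which says nothing of the factors that may act there.

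Library totals ran from 13152783 to 20273548 counts, and the unit of level is CPM, the count of a gene after scaling for library size. The least read as a signal in a library, 3 counts, equalled 0.146 to 0.237 CPM, which covers counting error only. Irf4 in PBS, at 17, 29 and 36 counts, was the lowest of the 8 factors in any group and lay above that floor in each library. Differences were tested with edgeR's quasi-likelihood test over all 9 libraries, with Benjamini-Hochberg adjustment over all tested genes, and a gene was called at an adjusted p under 0.05. Errors after log2 fold changes are standard errors. The comparisons of both agents with PBS share the PBS libraries.

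Of the 8 factors, 7 rose in Lipo-TriTE against PBS, where 18.9% of all tested genes were called higher and 14.8% lower, and none of the 8 was called lower by edgeR at either an adjusted or an unadjusted p under 0.05, or by DESeq2. In Lipo-BiTE against PBS 6 rose, where 13.8% of all tested genes were called higher and 3.22% lower, and again 0 of the 8 were called lower by any of these. Libraries of the agent lay above all PBS libraries for 7 factors with Lipo-TriTE and for 6 with Lipo-BiTE, which held for 26% and 22.7% of all tested genes. Median log2 fold changes over the 8 were 1.46 for Lipo-TriTE and 1.14 for Lipo-BiTE, beside 0.00 and -0.02 over all tested genes. In Lipo-TriTE against Lipo-BiTE, Irf4 and Irf8 rose and the other 6 were not called, where 4.88% of tested genes were called higher and 5.21% lower. Those 2 factors were also the ones whose Lipo-TriTE libraries lay above all Lipo-BiTE libraries, as 16.1% of tested genes did. The median over the 8 in that comparison was 0.15, beside -0.01 over all tested genes.

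**Figure D1:**
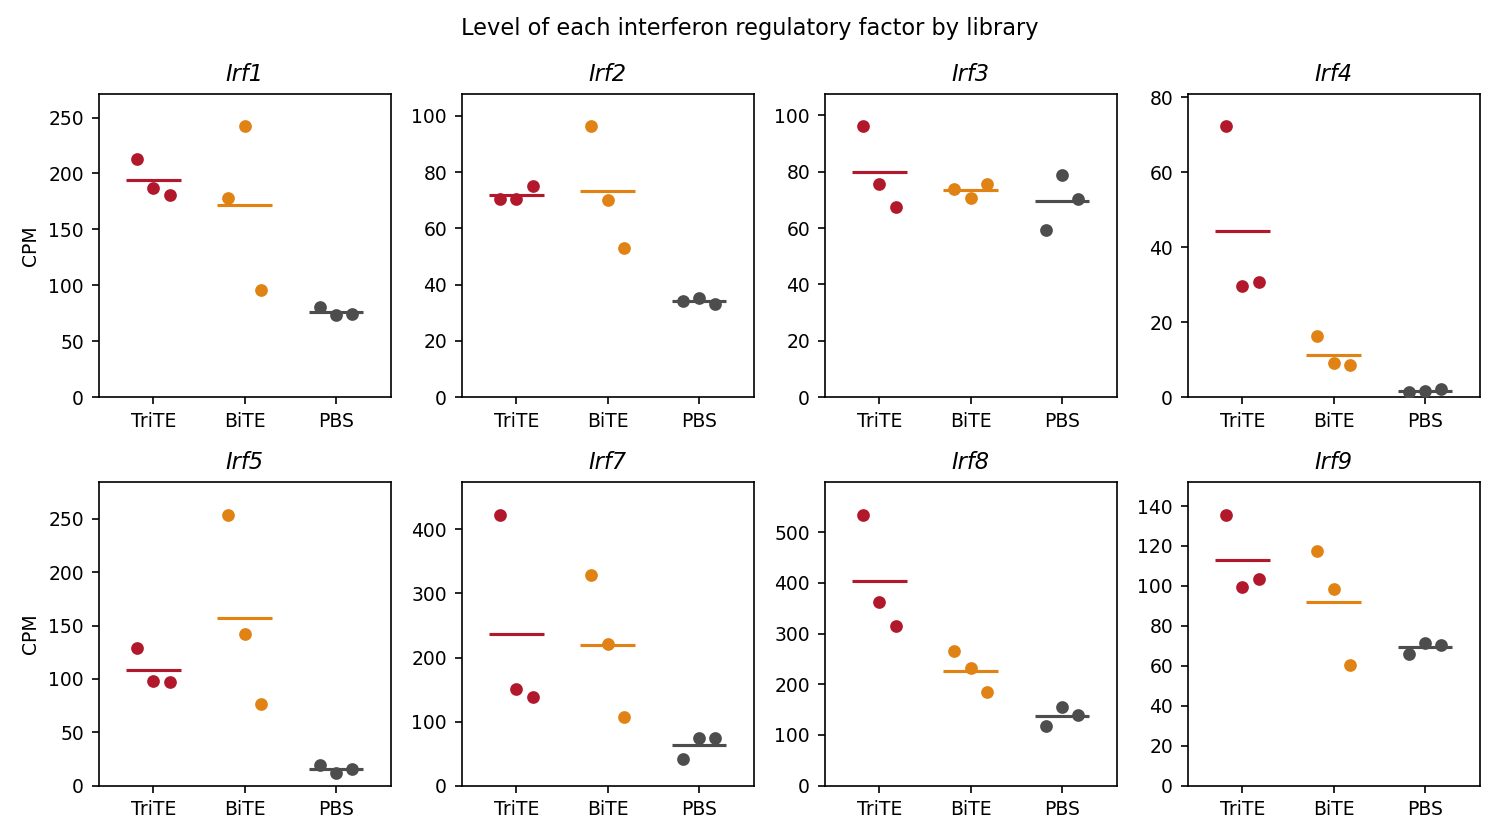
Level of each factor in CPM (vertical axes from 0, scaled per gene) in Lipo-TriTE, Lipo-BiTE and PBS tumours; each point is 1 library and the line is the mean of 3. Irf4 and Irf8 stand highest in Lipo-TriTE, Irf5 has its highest library in Lipo-BiTE at 254 CPM, and the Irf3 points of all groups overlap.

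**Figure D2:**
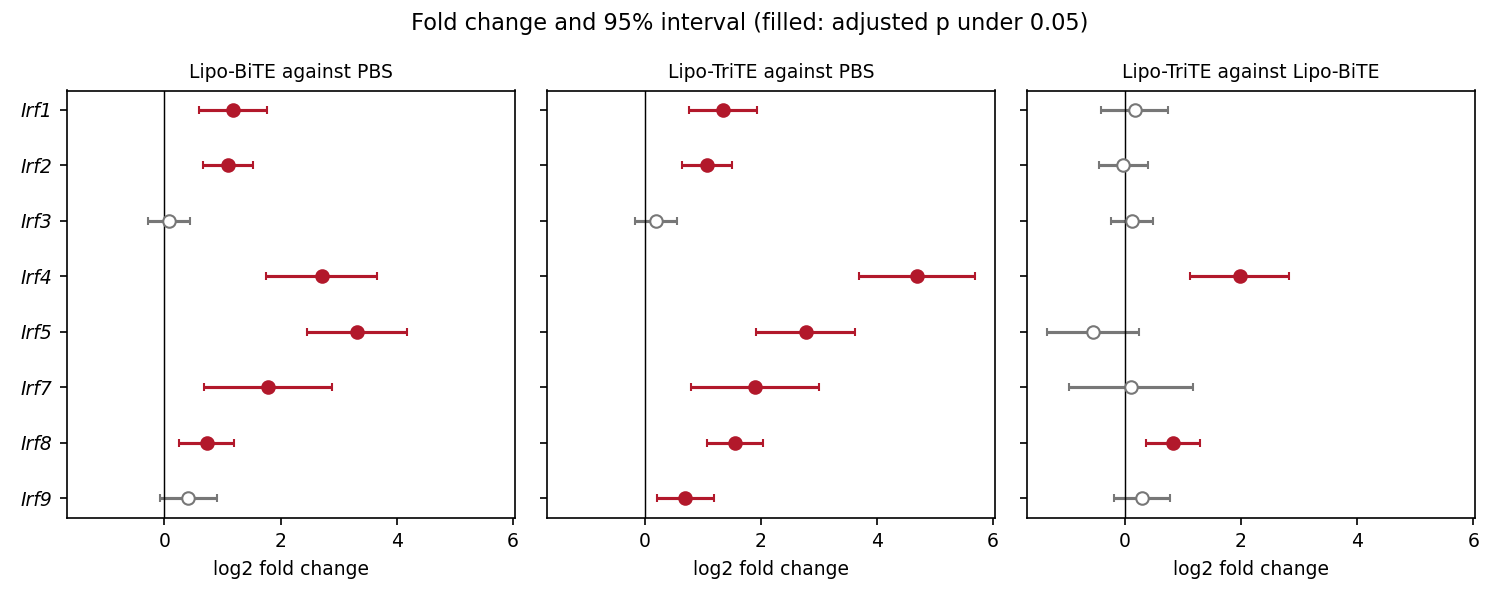
Log2 fold change of each factor (horizontal axis) with its 95% interval in the 3 comparisons; filled points have an edgeR adjusted p under 0.05. Filled points number 6 for Lipo-BiTE against PBS, 7 for Lipo-TriTE against PBS and 2 for Lipo-TriTE against Lipo-BiTE.

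Among the factors that start interferon and cytokine transcription, Irf5 and Irf7 rose with both agents and Irf3 was not called in any comparison. Irf3 was read at 96.2, 75.8 and 67.6 CPM in Lipo-TriTE, 73.7, 70.6 and 75.8 CPM in Lipo-BiTE and 59.2, 79.0 and 70.4 CPM in PBS libraries. Every group overlapped every other, and the mean of each lay between 69.5 and 79.9 CPM. The fold change of Irf3 was 1.15 in Lipo-TriTE against PBS (95% interval 0.896 to 1.47, edgeR adjusted p = 0.374) and 1.06 in Lipo-BiTE against PBS (0.823 to 1.35, edgeR adjusted p = 0.781). The interval of the first leaves room for a rise of up to 1.47-fold, so an equal level is not shown.

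Irf5 was at 129, 98.1 and 96.9 CPM in Lipo-TriTE, 254, 142 and 76.9 CPM in Lipo-BiTE and 19.4, 12.1 and 15.9 CPM in PBS libraries. Both agents lay above PBS without overlap, and the Lipo-BiTE libraries spread 3.30-fold from lowest to highest, on both sides of the Lipo-TriTE libraries. The log2 fold change of Irf5 was 2.77 ± 0.38 in Lipo-TriTE against PBS (6.84-fold, edgeR adjusted p = 0.000545). In Lipo-BiTE against PBS it was 3.32 ± 0.39 (9.98-fold, edgeR adjusted p = 0.000765), the largest of the 8 in that comparison. Between the agents Irf5 stood at 0.685-fold in Lipo-TriTE relative to Lipo-BiTE, with an interval of 0.398 to 1.18 (edgeR adjusted p = 0.373). Csf1r, the receptor that marks macrophages and monocytes, was at 637, 301 and 199 CPM in Lipo-BiTE, 186, 222 and 170.3 CPM in Lipo-TriTE and 28.9, 30.9 and 27.7 CPM in PBS libraries. Its order of libraries was that of Irf5 within Lipo-BiTE but not within Lipo-TriTE or PBS. The Lipo-BiTE order was not particular to Csf1r, since Ptprc, a gene of all leukocytes, had it too, at 1506, 910 and 410 CPM. All 9 tested macrophage and monocyte markers rose with each agent against PBS, to a summed level of 902 to 1291 CPM in Lipo-TriTE and 992 to 3171 CPM in Lipo-BiTE, against 177 to 193 CPM in PBS libraries. None of the 9 was at 0 in a whole group. All 7 neutrophil and all 9 T cell markers also rose with each agent against PBS. The part of these markers in the Irf5 result was not tested.

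Irf7 was at 423, 150.2 and 138 CPM in Lipo-TriTE, 329, 221.5 and 108 CPM in Lipo-BiTE and 41.0, 74.1 and 75.2 CPM in PBS libraries. Lipo-TriTE 1 stood well above the other Lipo-TriTE libraries, PBS 1 below the other PBS libraries, and neither agent overlapped PBS. The log2 fold change was 1.90 ± 0.50 in Lipo-TriTE against PBS (3.74-fold, edgeR adjusted p = 0.0147) and 1.79 ± 0.50 in Lipo-BiTE against PBS (3.45-fold, edgeR adjusted p = 0.0334). Neither call held in every fit with 1 library left out, which leaves 2 libraries in that arm. For Lipo-TriTE the fold change was 2.29 without Lipo-TriTE 1 (edgeR adjusted p = 0.0592), and the call was also lost without PBS 1 (0.0623). For Lipo-BiTE the call was lost without PBS 1 (edgeR adjusted p = 0.134), PBS 2 (0.0801), PBS 3 (0.0767), Lipo-BiTE 1 (0.127) or Lipo-BiTE 2 (0.0818). Without a filter on low counts both calls were lost, at edgeR adjusted p = 0.114 for Lipo-TriTE and 0.195 for Lipo-BiTE. Between the agents Irf7 stood at 1.08-fold, with a wide interval of 0.516 to 2.27 (edgeR adjusted p = 0.917). Siglech, a defining gene of plasmacytoid dendritic cells, was at 108, 64.2 and 87.6 CPM in Lipo-TriTE, 6.71, 6.39 and 8.07 CPM in Lipo-BiTE and 8.83, 4.31 and 4.75 CPM in PBS libraries. Of the 7 markers of these cells, 5 rose and 1 fell in Lipo-TriTE against PBS, and in Lipo-BiTE against PBS 1 fell and the other 6 were not called. Together the 7 summed to 432 to 664 CPM in Lipo-TriTE, 286 to 310.5 CPM in Lipo-BiTE and 335 to 353 CPM in PBS libraries, and their part in the Irf7 results was not tested.

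Irf9, the DNA-binding subunit of ISGF3, was at 136, 99.3 and 103 CPM in Lipo-TriTE, 118, 98.4 and 60.4 CPM in Lipo-BiTE and 65.8, 71.5 and 70.3 CPM in PBS libraries. All Lipo-TriTE libraries lay above PBS, whereas Lipo-BiTE 3 lay below every PBS library. The log2 fold change was 0.71 ± 0.22 in Lipo-TriTE against PBS (1.63-fold, edgeR adjusted p = 0.0302) and 0.41 ± 0.22 in Lipo-BiTE against PBS (1.33-fold, interval 0.951 to 1.87, edgeR adjusted p = 0.22). The Lipo-TriTE call was lost without PBS 1 (edgeR adjusted p = 0.0813), PBS 2 (0.0617), PBS 3 (0.0671) or Lipo-TriTE 1 (0.0846). Without Lipo-BiTE 3 the Lipo-BiTE difference was 0.62 on the log2 scale and was called (edgeR adjusted p = 0.0254). Rnf31, whose model overlaps that of Irf9 on the same strand, had log2 fold changes of 0.89 and 1.07 in Lipo-TriTE and Lipo-BiTE against PBS. Between the agents Irf9 stood at 1.22-fold (interval 0.875 to 1.71, edgeR adjusted p = 0.442).

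Irf1 and Irf2, the activator and the repressor that share binding sites, rose with both agents against PBS. Irf1 was at 213, 187 and 181 CPM in Lipo-TriTE, 178, 242 and 95.4 CPM in Lipo-BiTE and 80.2, 73.4 and 74.3 CPM in PBS libraries. Both agents lay above PBS, Lipo-BiTE 3 by the least, and the Lipo-BiTE libraries reached both below and above those of Lipo-TriTE. Irf1 changed 2.55-fold in Lipo-TriTE against PBS (log2 1.35 ± 0.27, edgeR adjusted p = 0.00346) and 2.26-fold in Lipo-BiTE against PBS (log2 1.18 ± 0.27, edgeR adjusted p = 0.0126).

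Irf2 was at 70.4, 70.4 and 75.2 CPM in Lipo-TriTE, 96.4, 70.1 and 53.0 CPM in Lipo-BiTE and 34.2, 35.1 and 33.2 CPM in PBS libraries. The Lipo-TriTE and PBS libraries were each tightly grouped and the Lipo-BiTE libraries spread around the Lipo-TriTE ones. Irf2 changed 2.11-fold in Lipo-TriTE against PBS (log2 1.08 ± 0.19, edgeR adjusted p = 0.00198) and 2.14-fold in Lipo-BiTE against PBS (log2 1.10 ± 0.19, edgeR adjusted p = 0.00295). Between the agents Irf1 stood at 1.13-fold (interval 0.754 to 1.68) and Irf2 at 0.984-fold (0.736 to 1.32), with edgeR adjusted p = 0.737 and 0.961. Against PBS, the calls of Irf1, Irf2, Irf4 and Irf5 held in all 14 alternative analyses of each agent.

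Irf4, the factor of activated lymphocytes and plasma cells, had the largest fold change of the 8 in Lipo-TriTE against PBS and in Lipo-TriTE against Lipo-BiTE. Its level was 72.4, 29.8 and 30.8 CPM in Lipo-TriTE, 16.3, 9.10 and 8.51 CPM in Lipo-BiTE and 1.26, 1.71 and 2.14 CPM in PBS libraries. The groups stood in 3 steps with no overlap, and replicate 1 was highest in Lipo-TriTE and in Lipo-BiTE. Irf4 changed 25.7-fold in Lipo-TriTE against PBS (log2 4.69 ± 0.45, edgeR adjusted p = 7.25e-05) and 6.54-fold in Lipo-BiTE against PBS (log2 2.71 ± 0.43, edgeR adjusted p = 0.00194). In Lipo-TriTE against Lipo-BiTE it changed 3.93-fold (log2 1.98 ± 0.39, interval 2.18 to 7.11, edgeR adjusted p = 0.0129). That call was lost without Lipo-BiTE 2, at edgeR adjusted p = 0.0687.

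T cell markers rose wherever Irf4 did, whereas most B cell and plasma cell markers rose only in the comparisons of Lipo-TriTE. This was not particular to T cells. Of 9 conventional dendritic cell markers 8 rose and 1 fell in Lipo-TriTE against PBS, and 7 rose in each other comparison. Of 6 tested natural killer cell markers, 6 rose with each agent against PBS and 3 in Lipo-TriTE against Lipo-BiTE. Cd3e, the CD3 epsilon chain, was at 106, 69.4 and 61.2 CPM in Lipo-TriTE, 35.4, 19.3 and 13.2 CPM in Lipo-BiTE and 2.82, 4.07 and 4.75 CPM in PBS libraries. All 9 T cell markers rose in each of the 3 comparisons, and their summed level was 858 to 1435 CPM in Lipo-TriTE, 189.5 to 352 CPM in Lipo-BiTE and 39.6 to 45.4 CPM in PBS libraries. The 9 B cell markers summed to 482 to 1371 CPM in Lipo-TriTE, 14.3 to 32.2 CPM in Lipo-BiTE and 8.79 to 11.5 CPM in PBS libraries. All 9 rose in Lipo-TriTE against PBS and against Lipo-BiTE, and 1 rose in Lipo-BiTE against PBS, where 13.8% of all tested genes were called higher. Jchain, the joining chain of secreted antibodies, was at 415, 162 and 199 CPM in Lipo-TriTE, 3.47, 2.71 and 2.18 CPM in Lipo-BiTE and 2.67, 1.53 and 2.08 CPM in PBS libraries. In the whole plasma cell list, 5 of 6 tested markers rose and 1 fell in Lipo-TriTE against PBS, and 1 rose and 1 fell in Lipo-BiTE against PBS, where Jchain stood at 1.34-fold and was not called (edgeR adjusted p = 0.519). The list summed to 1008 to 3144 CPM in Lipo-TriTE, 151 to 194 CPM in Lipo-BiTE and 225 to 236.5 CPM in PBS libraries. Of its 7 markers 1 was at 0 in all Lipo-BiTE libraries and 1 in all PBS libraries. The part of these markers in the Irf4 results was not tested.

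Irf8, a factor of dendritic cells, monocytes and B cells, was at 535, 362 and 316 CPM in Lipo-TriTE, 265, 231 and 185 CPM in Lipo-BiTE and 117, 155 and 139 CPM in PBS libraries. As with Irf4, the groups did not overlap and stood highest in Lipo-TriTE and lowest in PBS, but PBS libraries already held a high level. Irf8 changed 2.95-fold in Lipo-TriTE against PBS (log2 1.56 ± 0.22, edgeR adjusted p = 0.000474), a call kept in all 14 alternatives. It changed 1.66-fold in Lipo-BiTE against PBS (log2 0.73 ± 0.21, edgeR adjusted p = 0.0393). That call was lost without any of PBS 1 (edgeR adjusted p = 0.134), PBS 2 (0.0621), PBS 3 (0.0972), Lipo-BiTE 1 (0.146) and Lipo-BiTE 2 (0.116), and on total counts without TMM (0.0642). In Lipo-TriTE against Lipo-BiTE it changed 1.78-fold (log2 0.83 ± 0.21, interval 1.28 to 2.47, edgeR adjusted p = 0.0341). That call was lost without Lipo-BiTE 2 (edgeR adjusted p = 0.118), Lipo-BiTE 3 (0.0829) or Lipo-TriTE 1 (0.0685), and with PBS left out of the fit (0.052).

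Xcr1 and Cd79a, marker genes of dendritic cells and B cells, were highest in Lipo-TriTE, as Irf8 was. Xcr1, a chemokine receptor of cross-presenting dendritic cells, was at 26.4, 20.2 and 28.8 CPM in Lipo-TriTE, 8.29, 7.82 and 6.84 CPM in Lipo-BiTE and 2.45, 1.77 and 1.43 CPM in PBS libraries. Of 9 conventional dendritic cell markers 8 rose and 1 fell in Lipo-TriTE against PBS, 7 rose in Lipo-BiTE against PBS and 7 rose in Lipo-TriTE against Lipo-BiTE. Their summed level was 457.5 to 613 CPM in Lipo-TriTE, 362 to 478 CPM in Lipo-BiTE and 323 to 455 CPM in PBS libraries. Cd79a, a subunit of the B cell receptor, was at 204, 82.1 and 83.9 CPM in Lipo-TriTE, 3.00, 3.01 and 0.80 CPM in Lipo-BiTE and 0.742, 0 and 0.654 CPM in PBS libraries. It was not called in Lipo-BiTE against PBS (edgeR adjusted p = 0.079). T cell and natural killer cell markers were also highest in Lipo-TriTE in summed level. Against Lipo-BiTE, all 9 T cell markers and 3 of 6 natural killer cell markers rose in Lipo-TriTE. Macrophage and monocyte markers did not share that order. Of 9 tested, 0 were called higher and 0 lower in Lipo-TriTE against Lipo-BiTE. Their summed level was 902 to 1291 CPM in Lipo-TriTE, 992 to 3171 CPM in Lipo-BiTE and 177 to 193 CPM in PBS libraries. The part of these cells in the Irf8 result was not tested.

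Ranked per length, as RPKM, reads scaled to library total and to the deposited gene length, the factors took a different order in each group. In Lipo-TriTE Irf7 led at a mean of 78.5 RPKM, then Irf8 at 57.05, Irf1 at 48.8, Irf3 at 37.2, Irf5 at 37.2, Irf2 at 28.4, Irf9 at 20.9 and Irf4 at 9.40 RPKM. Neighbours whose libraries overlapped there were Irf7 and Irf8, Irf8 and Irf1, and Irf3 and Irf5. In Lipo-BiTE the order was Irf7 at 72.6, Irf5 at 54.2, Irf1 at 43.3, Irf3 at 34.2, Irf8 at 32.0, Irf2 at 28.9, Irf9 at 17.1 and Irf4 at 2.39 RPKM, and all neighbours overlapped except Irf9 and Irf4. Within each Lipo-BiTE library, Irf7 still lay above Irf5 and Irf2 above Irf9. In PBS Irf3 led at 32.4 RPKM and lay above Irf7 in each library, followed by Irf7 at 21.0, Irf8 at 19.4, Irf1 at 19.1, Irf2 at 13.5, Irf9 at 12.8, Irf5 at 5.44 and Irf4 at 0.361 RPKM. Overlapping neighbours in PBS were Irf7 and Irf8, Irf8 and Irf1, and Irf2 and Irf9, although Irf2 lay above Irf9 within each PBS library. The lowest place was held by Irf4 in all 3 groups, and the place of Irf5 was the fifth, the second and the seventh in Lipo-TriTE, Lipo-BiTE and PBS.

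The 8 factors summed to 427, 269.6 and 256 RPKM in Lipo-TriTE, 376, 297 and 182 RPKM in Lipo-BiTE and 111, 133 and 128 RPKM in PBS libraries. Of that sum Irf3 made up 12.0% ± 1.33 in Lipo-TriTE, 13.2% ± 5.48 in Lipo-BiTE and 26.03% ± 1.38 in PBS libraries (SD, n = 3 each). Irf5 made up 12.0% ± 1.40, 18.1% ± 4.56 and 4.48% ± 1.48 in the same groups, and Irf4 2.83% ± 0.671, 0.854% ± 0.180 and 0.290% ± 0.0579. Shares of Irf1 overlapped between all groups, at 15.9% ± 2.93 in Lipo-TriTE, 15.2% ± 4.66 in Lipo-BiTE and 15.6% ± 2.36 in PBS libraries.

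**Figure D3:**
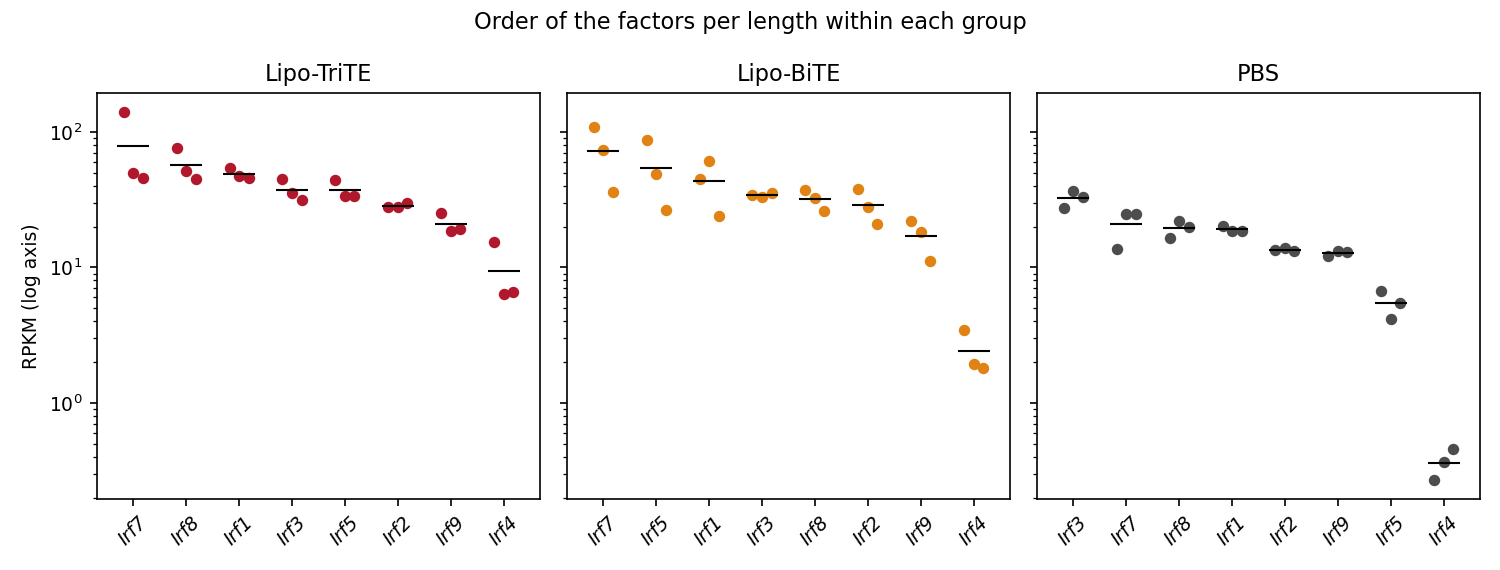
The factors in order of mean RPKM (log axis, black lines) within Lipo-TriTE, Lipo-BiTE and PBS; each point is 1 library. Irf3 leads in PBS and Irf7 in both other groups, and Irf4 is last in each, at a mean of 9.40, 2.39 and 0.361 RPKM.

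Ptprc, the CD45 gene of all nucleated blood cells, was far higher with both agents, at 1456 ± 258 CPM in Lipo-TriTE, 942 ± 549 CPM in Lipo-BiTE and 88.6 ± 14.0 CPM in PBS libraries (SD, n = 3 each). Set against it in each library, 6 factors had ratios in PBS above those of every library of either agent. Ptprc itself rose 16.4-fold with Lipo-TriTE and 10.6-fold with Lipo-BiTE, so a gene that rose less or stayed level tends to give this pattern. The share of all tested genes with it was not computed, so the count is not shown to be particular to the factors. The ratio of Irf3 to Ptprc CPM was 0.0521 to 0.0576 in Lipo-TriTE, 0.0489 to 0.185 in Lipo-BiTE and 0.717 to 0.830 in PBS libraries. Irf8 gave 0.243 to 0.305, 0.176 to 0.452 and 1.42 to 1.63 in the same groups. The ratio of Irf4 was 0.0226 to 0.0412 in Lipo-TriTE, 0.0100 to 0.0208 in Lipo-BiTE and 0.0174 to 0.0218 in PBS libraries, and its Lipo-TriTE libraries lay above the others. The ratio of Irf5 was 0.0734 to 0.0747 in Lipo-TriTE, below the 0.156 to 0.188 of Lipo-BiTE and the 0.127 to 0.268 of PBS libraries, which overlapped. These ratios are descriptions without a test. The files do not separate tumour cells from blood cells as the source of these transcripts.

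**Figure D4:**
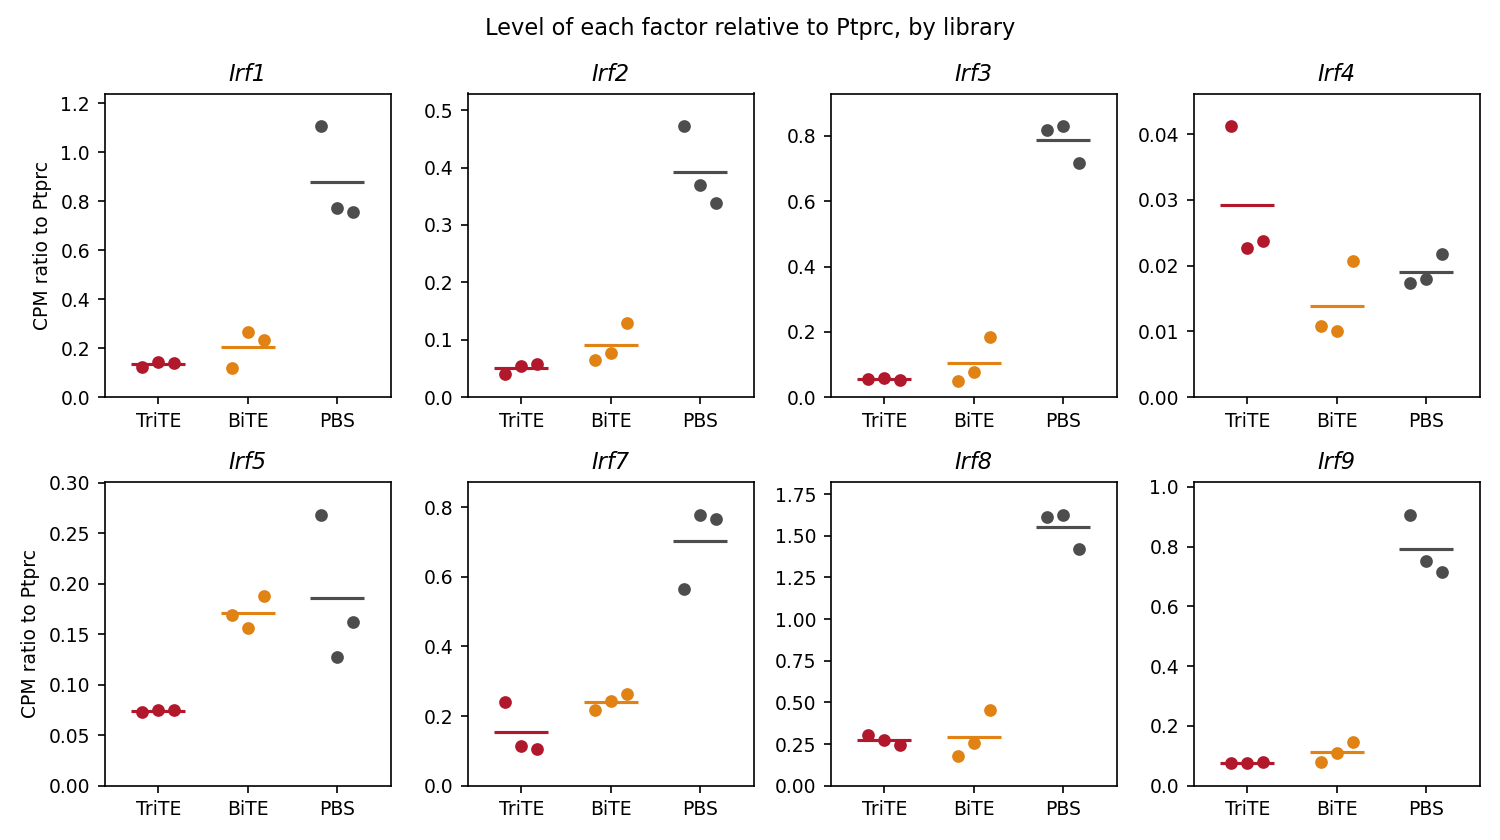
Ratio of each factor's CPM to that of Ptprc (vertical axes from 0, scaled per gene) in Lipo-TriTE, Lipo-BiTE and PBS; points are libraries and lines are means of 3. For Irf1, Irf2, Irf3, Irf7, Irf8 and Irf9 every PBS library lies above every agent library, and Irf4 and Irf5 depart from that pattern. Ptprc itself rose with both agents, so genes that rose less than Ptprc tend to lie this way.

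The factors differed in which other genes followed them across the 9 libraries. Likeness was measured as the root mean square difference between profiles of log2 CPM centred on their mean, over 10163 genes with a mean of at least 5 CPM. Nearest to Irf1 were Gbp7, an interferon-inducible guanylate-binding protein, at 0.088 and Plgrkt at 0.184, where the median gene stood at 0.784. Nearest to Irf2 were Lrrfip1 at 0.089 and Klf3 at 0.093, and to Irf3 Unc119b at 0.070 and Pank4 at 0.080. The median gene stood at 0.67 from Irf2 and at 0.373 from Irf3, so many genes lay near Irf3. For Irf4 they were Kbtbd11 at 0.165 and Cd6, a T cell surface receptor, at 0.175, with the median gene at 1.95. For Irf5 they were Lair1, an inhibitory leukocyte receptor, at 0.172 and Ms4a6c at 0.180, and for Irf7 Crlf2 at 0.216 and H2-T24 at 0.224. Irf8 had Lbh at 0.116 and Herc3 at 0.122, and Irf9 had Slc30a1 at 0.088 and Parp9 at 0.104. The median gene stood at 1.535 from Irf5, 1.09 from Irf7, 0.79 from Irf8 and 0.537 from Irf9. Among the 8 themselves, Irf1 and Irf2 were the closest pair at 0.293 and Irf3 and Irf4 the most distant at 1.80. The profiles share their libraries, so these distances describe likeness only.

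Around the factors, genes of the interferon system were counted in lists by role. For comparison, 18.9% of all tested genes were called higher and 14.8% lower in Lipo-TriTE against PBS. In Lipo-BiTE against PBS the shares were 13.8% and 3.22%. Median log2 fold changes over all tested genes were 0.003 for Lipo-TriTE and -0.023 for Lipo-BiTE. Of 20 interferon ligand genes 16 were in the table, and Ifng, encoding interferon gamma of T cells and natural killer cells, was the one with enough counts to be tested. Ifng was at 14.6 ± 6.56 CPM in Lipo-TriTE, 11.7 ± 3.61 CPM in Lipo-BiTE and 2.20 ± 0.290 CPM in PBS libraries (SD, n = 3 each), 6.61-fold and 5.28-fold above PBS (edgeR adjusted p = 0.00052 and 0.00177). Ifnb1, the interferon beta gene that Irf3 and Irf7 act on, had 0, 3 and 0 counts in Lipo-TriTE, 3, 0 and 0 in Lipo-BiTE and 0 in each PBS library, so no difference was detectable at this depth. Ifna4 had 0 counts in each of the 9 libraries.

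Of 11 receptor, JAK and STAT genes, 10 rose in Lipo-TriTE against PBS and 8 in Lipo-BiTE against PBS, with median log2 fold changes of 0.89 and 0.96. These fell to 6 without PBS 3 for Lipo-TriTE, and to 4 for Lipo-BiTE without PBS 2, PBS 3, Lipo-BiTE 1 or Lipo-BiTE 2. Ifngr1, a chain of the interferon gamma receptor, was at 252 ± 8.40 CPM in Lipo-TriTE, 202 ± 103 CPM in Lipo-BiTE and 51.8 ± 1.38 CPM in PBS libraries. Ifnlr1, the lambda interferon receptor, had 64, 45 and 65 counts in Lipo-TriTE, 88, 57 and 24 in Lipo-BiTE and 0, 0 and 5 in PBS libraries. Between the agents edgeR called 0 of the 11, where 2 had an unadjusted p under 0.05 and DESeq2 called 1.

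Genes of the sensor and kinase pathways that lead to Irf3, Irf5 and Irf7 rose in part, and the lists are not limited to activators. Of 16 tested sensors and adaptors, 7 rose in Lipo-TriTE against PBS and 7 in Lipo-BiTE against PBS, with medians of 0.66 and 0.89, and without Lipo-BiTE 3 the count for Lipo-BiTE was 11. Tlr7, a receptor for single-stranded RNA, was at 42.2 ± 18.2 CPM in Lipo-TriTE, 27.2 ± 15.5 CPM in Lipo-BiTE and 3.72 ± 0.391 CPM in PBS libraries, 11.3-fold and 7.29-fold above PBS (edgeR adjusted p = 0.000359 and 0.0017). Unc93b1, which carries such receptors to endosomes, was 11.6-fold higher with each agent, and Tlr9 13.6-fold with Lipo-TriTE and 11.2-fold with Lipo-BiTE. Genes of cytosolic nucleic acid sensing were mixed. The RNA sensors Ddx58 and Ifih1, the DNA sensor Mb21d1 and its adaptor Tmem173 were not called in either comparison with PBS. Zbp1, a further sensor in the list, rose by 1.79 on the log2 scale in Lipo-TriTE (edgeR adjusted p = 0.00801) and by 1.57 in Lipo-BiTE (0.0259). Mavs, the mitochondrial adaptor of the RNA sensors encoded by Ddx58 and Ifih1, fell by 0.45 on the log2 scale in Lipo-TriTE (edgeR adjusted p = 0.0233). Of 15 kinases and scaffolds, 7 rose and 1, Tbkbp1, was lower in Lipo-TriTE against PBS, and 4 rose in Lipo-BiTE against PBS, a count that was 9 without Lipo-BiTE 3, with medians of 0.60 and 0.47. Ikbke, a kinase of Irf3 and Irf7, was 5.43-fold higher with Lipo-TriTE and 4.40-fold with Lipo-BiTE, whereas Tbk1, the kinase it acts beside, was not called.

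Of 12 partner transcription factors, 7 rose in Lipo-TriTE against PBS and 9 in Lipo-BiTE against PBS, with medians of 1.79 and 2.17. Batf, which binds DNA together with Irf4 or Irf8, was at 22.2 ± 4.39 CPM in Lipo-TriTE, 12.6 ± 3.92 CPM in Lipo-BiTE and 2.37 ± 0.211 CPM in PBS libraries, 9.40-fold and 5.30-fold above PBS (edgeR adjusted p = 4.05e-05 and 0.000765). Ikzf1 was 21.8-fold higher with Lipo-TriTE and 9.14-fold with Lipo-BiTE. Ikzf3, a lymphocyte factor that also stands in the list of Irf4-dependent genes, was 20.3-fold and 4.75-fold higher, and 4.27-fold higher in Lipo-TriTE against Lipo-BiTE (edgeR adjusted p = 0.00968). In that comparison 2 partners rose, Spib and Ikzf3, and 2 fell, Jun and Batf2, and the count of rises was 4 without Lipo-BiTE 1 and 1 without Lipo-BiTE 2. Of 11 inhibitors and corepressors, 5 rose in Lipo-TriTE against PBS, or 3 without PBS 1 or Lipo-TriTE 1, and 4 rose in Lipo-BiTE against PBS, with medians of 0.87 and 0.51. Socs3 was 3.90-fold higher with Lipo-TriTE and 7.31-fold with Lipo-BiTE, and Tnfaip3 5.58-fold and 6.68-fold.

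Among target genes, 8 of 17 ISGF3 targets rose with each agent against PBS, with medians of 0.87 for Lipo-TriTE and 1.13 for Lipo-BiTE. The counts fell on leaving out some single libraries, which leaves 2 libraries in that arm. With Lipo-TriTE, 3 rose without Lipo-TriTE 1, 4 without PBS 1 and 5 without PBS 3. With Lipo-BiTE, 2 rose without PBS 1, 3 without PBS 3 or Lipo-BiTE 2, 4 without Lipo-BiTE 1 and 5 without PBS 2. Mx1, an antiviral GTPase, was at 74.9 ± 59.0 CPM in Lipo-TriTE, 73.5 ± 42.0 CPM in Lipo-BiTE and 9.19 ± 2.69 CPM in PBS libraries, 8.12-fold and 7.96-fold above PBS (edgeR adjusted p = 0.00325 and 0.00605). Between the agents edgeR called 0 of the 17, where 1 had an unadjusted p under 0.05 and DESeq2 called 1 lower.

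Of 21 Irf1 target genes, 13 rose in Lipo-TriTE against PBS and 9 in Lipo-BiTE against PBS, with medians of 0.88 and 0.87. The count for Lipo-TriTE was 7 without PBS 2 or PBS 3 and 8 without Lipo-TriTE 1. Ciita, the master regulator of MHC class II genes, was at 95.1 ± 57.1 CPM in Lipo-TriTE, 49.5 ± 22.2 CPM in Lipo-BiTE and 5.27 ± 0.496 CPM in PBS libraries, 18.02-fold and 9.36-fold above PBS (edgeR adjusted p = 0.000148 and 0.00103). Psmb9, a subunit of the immunoproteasome, was 1.99-fold higher with Lipo-TriTE (edgeR adjusted p = 0.00142) and stood at 1.42-fold with Lipo-BiTE without a call (0.062). The MHC class I genes B2m, Tap1, Tapbp and Nlrc5 were not called with either agent.

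Of 9 tested Irf4-dependent lymphocyte genes, 7 rose in Lipo-TriTE against PBS and 5 in Lipo-BiTE against PBS, with medians of 1.71 and 1.75. Prdm1, the factor of plasma cell and effector T cell maturation, was at 15.2 ± 3.36 CPM in Lipo-TriTE, 15.4 ± 5.24 CPM in Lipo-BiTE and 1.64 ± 0.621 CPM in PBS libraries, 9.22-fold and 9.29-fold above PBS (edgeR adjusted p = 0.000158 and 0.000765). Between the agents 2 rose, Ikzf3 and Il17a, or 0 without Lipo-BiTE 2 and 1 without Lipo-BiTE 3 or Lipo-TriTE 3. Il17a was near the floor in Lipo-BiTE, at 7, 3 and 8 counts, beside 26, 52 and 100 in Lipo-TriTE and 24, 13 and 32 in PBS libraries. It was not called against PBS with Lipo-TriTE (edgeR adjusted p = 0.133) or Lipo-BiTE (0.123). Of 9 tested cytokine targets of Irf5 and Irf7, 8 rose in Lipo-TriTE against PBS, or 5 without PBS 2, and 7 rose in Lipo-BiTE against PBS, with medians of 3.07 and 2.09. Ccl5, a chemokine for T cells, was at 133 ± 19.8 CPM in Lipo-TriTE, 55.8 ± 24.3 CPM in Lipo-BiTE and 15.2 ± 1.99 CPM in PBS libraries, and was 2.38-fold higher in Lipo-TriTE against Lipo-BiTE (edgeR adjusted p = 0.0171). Il12b, the p40 chain of interleukin 12, was 3.22-fold higher in that comparison (edgeR adjusted p = 0.0249), and Cxcl10 fell by 1.23 on the log2 scale (0.0238). The count of cytokines higher in Lipo-TriTE than in Lipo-BiTE was 0 without Lipo-BiTE 2 or Lipo-TriTE 3, and 1 without Lipo-BiTE 1, Lipo-BiTE 3 or Lipo-TriTE 2.

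**Figure D5:**
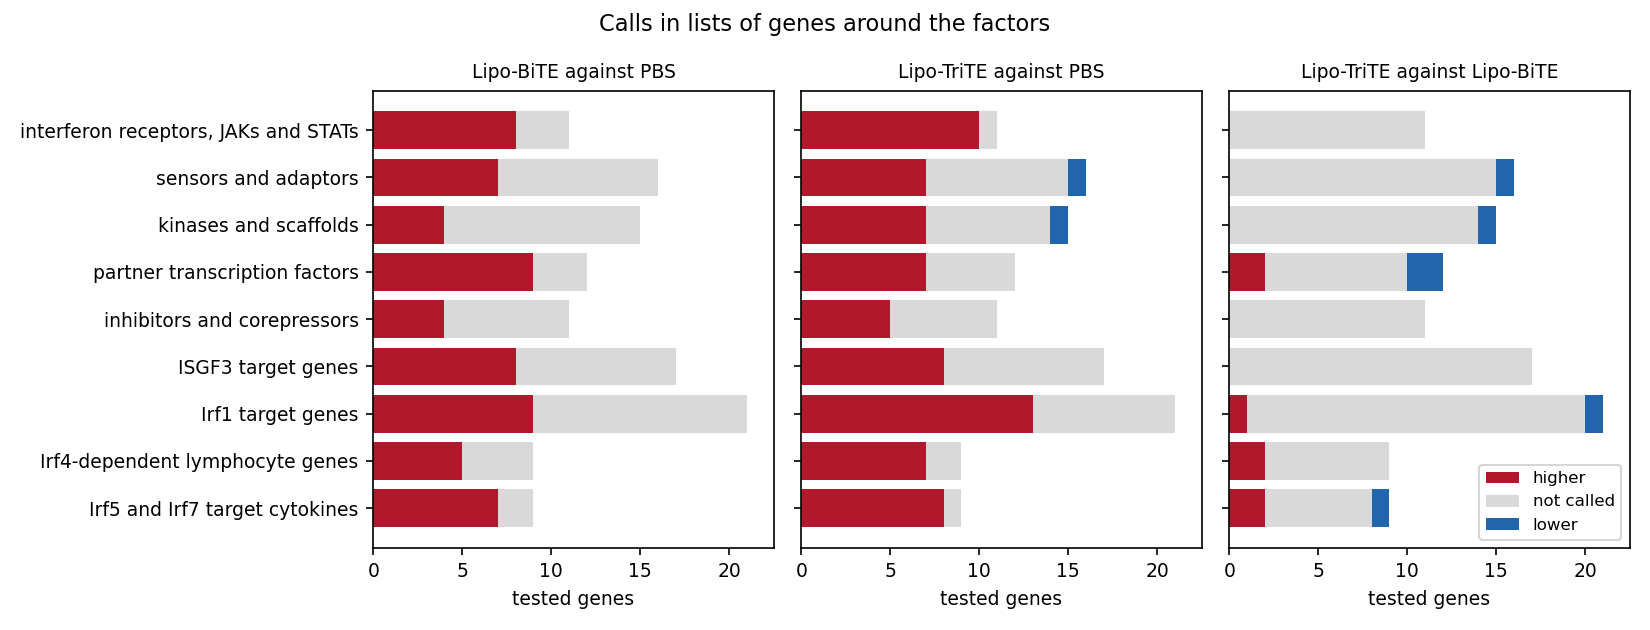
Number of tested genes called higher, not called or called lower (edgeR adjusted p under 0.05) in 9 lists of genes around the factors, for the 3 comparisons. Receptor, JAK and STAT genes show 10 of 11 higher in Lipo-TriTE against PBS, where 18.9% of all tested genes were called higher. In Lipo-BiTE against PBS 13.8% of all tested genes were called higher. Few genes of any list are called between the agents, where 4.88% of all tested genes were called higher and 5.21% lower.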

How the data were processed

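RNA of 9 tumour samples was sequenced from randomly primed cDNA, per the labels' protocols. Raw counts of reads for each gene were deposited with its length in bases, per the file headers. Neither the aligner nor the counting tool is given in the sources used here. Columns named untreated were taken as the PBS libraries, an inference from the one group left and the numbers 1 to 3. Names on several rows (52) stayed with the row with the most counts, and 3710 entries had no gene name.

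The software was edgeR 4.0.16 and limma 3.58.1 under R 4.3.3. Genes passing filterByExpr (16596) were scaled by TMM and tested with the quasi-likelihood F test with robust estimation, 1 mean per group over 9 libraries, 6 residual and a median of 4.99 prior degrees of freedom. Standard errors are the fold change over the root of the F statistic. CPM and RPKM used TMM-scaled totals. The procedure was also tested on simulated data. Libraries of a group differed by more than sampling noise, with chi-square per degree of freedom of 4.98 for PBS 2 and 3 and 26.6 to 95.5 for other pairs.

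The 8 factors, the 10 gene lists and the 14 marker lists were chosen with earlier results of these data known. Named genes were the 8 factors, up to 3 genes of each list with the smallest p in Lipo-TriTE against PBS, the 2 genes nearest to each factor in profile and a panel of cell type markers. A gene this rule also picked is not reported here. Genes named outside this rule, which are Ifnb1, Ifna4, Ddx58, Ifih1, Mb21d1, Tmem173, Zbp1, Mavs, Tbkbp1, Tbk1, Spib, Jun, Batf2, B2m, Tap1, Tapbp, Nlrc5, Il17a, Cxcl10, Gm17334, Tnpo3, Phrf1 and Rnf31, were chosen after their values were seen. Alternatives were DESeq2 1.42.0 size factors and its Wald test, total counts without TMM, other filters, no robust estimation, a replicate block, fits of the 2 groups compared and leaving out each library.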

Additional observations from a re-analysis of the deposited data

How the results depend on the processing

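Each fold change of the factors was recomputed under 14 alternatives, and 294 of the resulting values kept their direction and side of the threshold, 26 lost a call, 1 gained one and 15 changed sign. Every change of sign was in a fold change that was not called. Irf2 in Lipo-TriTE against Lipo-BiTE, at -0.02, was 0.018 with DESeq2 size factors and with its Wald test, 0.12 on total counts, 0.028 with a filter of at least 1 CPM in 3 libraries, 0.006 with the replicate block, 0.022 with only the 2 groups compared, and -0.17 to 0.20 on leaving out a library. Irf3 in Lipo-BiTE against PBS was -0.056 on total counts and -0.031 to 0.17 on leaving out a library. On leaving out a library in Lipo-TriTE against Lipo-BiTE, Irf1 ran from -0.087 to 0.48, Irf3 from -0.011 to 0.22 and Irf7 from -0.57 to 0.50. Calls among the factors numbered 4 to 7, 5 to 7 and 0 to 2 on leaving out a library, in the order of Lipo-BiTE to PBS, Lipo-TriTE to PBS and Lipo-TriTE to Lipo-BiTE, and 1 in the last with only the 2 groups compared. Genes called over the whole table, 2817, 5582 and 1675, ran from 1535 to 3627, 3966 to 5147 and 434 to 1932, and in Lipo-TriTE against Lipo-BiTE were 2993 with no filter and 2679 with DESeq2. The cause was not tested.

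Total counts without TMM moved the median of all genes to -0.16 for Lipo-BiTE against PBS and to 0.11 for Lipo-TriTE against Lipo-BiTE, and the share of calls that were higher to 67.8% and 70.9%, beside 81.0% and 48.4%. With only the 2 groups compared, 61.9% of calls in Lipo-TriTE against Lipo-BiTE were higher. Deviations of same-numbered libraries were weakly correlated, at -0.19 to 0.08, so the numbers were not taken as pairs. In Lipo-TriTE against Lipo-BiTE these correlations were 0.041, 0.076 and 0.033 for numbers 1, 2 and 3. Each lay above the best with another number, at 0.019, -0.007 and 0.006. With the replicate block 4, 7 and 2 factors and 2174, 4920 and 1253 genes were called, and Irf7 (edgeR adjusted p = 0.0652) and Irf8 (0.0604) lost their calls in Lipo-BiTE against PBS. Factors read at few counts, as Irf4 was in PBS, carry more counting error than the rest. With 3 libraries per group, leaving 1 out leaves 2 in that arm.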
